A study of Homo sapiens with 12 samples.

Results

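HNRNPK, 2 of its processed pseudogenes (HNRNPKP1 and HNRNPKP4) and the 4 poly(C)-binding protein genes PCBP1, PCBP2, PCBP3 and PCBP4 were followed through 2 deposited lists of RNA regions enriched by an antibody against 1-methylguanosine (m1G). These 7 genes were taken by their spans in the RefSeq gene table (GRCh38). A region of the MetDiff list was assigned to a gene when one of its exon blocks overlapped the span, and a summit of the MACS2 list when its single base lay inside it. In this way 5 of 9585 MetDiff peaks and 5 of 3705 MACS2 summits were found. The set was put together with the fold values of HNRNPK and its pseudogenes in view, so the values below describe the family and were not tested.

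The libraries were made from polyadenylated RNA of PANC-1, an established line derived from a human pancreatic ductal adenocarcinoma. RNA was fragmented to an average of 100 to 200 nt and was either sequenced as input or after immunoprecipitation (IP) with anti-m1G antibody. There were 12 libraries in 4 groups of 3, all from experiment 2: input from WT control cells, m1G IP from WT control cells, input from cells after TRMT5 KD, and m1G IP from cells after TRMT5 KD. TRMT5, an enzyme that places m1G beside the anticodon of tRNAs, was depleted with siRNA for 4 days, and all cells belong to this 1 line. The labels do not tell whether the replicates were separate cultures.

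Both lists were deposited for the series as a whole, and which libraries entered them, control, knockdown or both, is not known. Neither list separates the libraries or labels a contrast of knockdown and control, so neither a spread between replicates nor an effect of TRMT5 depletion could be given for any gene, and the depletion of TRMT5 could not be checked. Fold is the authors' deposited ratio per peak, taken to be IP over input because tables of this layout put that ratio there; the list has no header that says so. FDR is the authors' false discovery rate per peak, and −log10 q is the authors' significance of a summit, not a size of enrichment. Read depth is unknown. Of the markers that fit a ductal carcinoma line, KRT8, KRT18, KRT19 and VIM had MetDiff peaks and KRT7 had none. KRT8, KRT18 and VIM also had summits, while KRT7 and KRT19 had 0. PRSS1, CPA1, INS, GCG, PECAM1 and PTPRC, markers of acinar, endocrine, endothelial and blood cells, had 0 peaks and 0 summits. Over all protein-coding genes 21.8% had a peak and 9.45% a summit. Peaks do not measure expression, so the identity of the cells was not tested.

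hnRNP K and the poly(C)-binding proteins are a family of RNA-binding proteins built around KH (K homology) domains, which grip short single-stranded stretches rich in cytosine. They act in splicing, mRNA stability and translation, and hnRNP K also binds DNA and takes part in transcription. A processed pseudogene is a copy of a spliced mRNA that was inserted back into the genome, so it resembles its parent's exons without the introns. Sequencing reads of the parent mRNA can therefore be placed on the copy, and reads of the copy on the parent, and the division of reads between HNRNPK, HNRNPKP1 and HNRNPKP4 is uncertain throughout.

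One stretch of HNRNPK under a MetDiff peak could be read from the sequence tables used here, because a RefSeq window around the start of the antisense gene HNRNPK-AS1 (GRCh38.p14) covers it. It is shown because it is the only family sequence under a listed peak in those tables, written 5′ to 3′ along HNRNPK mRNA (minus strand), with guanines, the bases that can carry m1G, in capitals. The first line is the exon block at chr9:83971882-83971957, and the second is the 10 bases that follow it in the gene, with their first 2 bases in capitals.

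HNRNPK block: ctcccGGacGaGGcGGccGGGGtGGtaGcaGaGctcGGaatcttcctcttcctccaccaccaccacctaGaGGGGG
HNRNPK next bases: GTaagttgtt

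The block held 24 guanines (31.6%) and 27 cytosines (35.5%) in 76 bases. The bases after it begin with GT, the letters with which introns usually open, so the block stops where this exon appears to end. Of 154 MetDiff blocks of at least 50 bases that lie wholly inside such RefSeq windows, 130 (84.4%) had at least this share of guanine, with a median of 39.0%, and 35 (22.7%) had at least its share of cytosine, with a median of 30.8%. Most of these windows surround gene starts, so they do not stand for all peaks. This HNRNPK block was thus on the guanine-poor side of the blocks that could be read.

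HNRNPK (ENSG00000165119, chromosome 9, 83968083 to 83980615, minus strand) had 2 MetDiff peaks. The stronger one ran from 83970735 to 83970962 in 2 blocks of 85 and 66 bases and had a fold of 30.6 with an FDR of 3.98e-07. Only 35 of 9585 peaks (0.365%) had at least this fold, against a median of 4.50 over the list. The other peak ran from 83971288 to 83971957 in 3 blocks of 69, 55 and 76 bases, the last of which is the sequence printed above. Its fold of 7.34 was reached by 2189 peaks (22.8%), and its FDR was 2.00e-07. The fold of the stronger peak was 4.17 times that of the other, while the FDR of both lay close together, among the lowest 10.9% and 10.0% of the list.

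The 2 HNRNPK peaks were separated by 325 bases of the genome and both lay in the 3′ part of the gene, with the stronger one 2652 bases from the 3′ end of the span and 9653 from the 5′ end. MIR7-1, the gene of a miR-7 precursor inside the HNRNPK span, lay 878 bases beyond the stronger peak and had 0 peaks and 0 summits, and the antisense gene HNRNPK-AS1 likewise had 0 of each. The MACS2 list had 1 summit in HNRNPK, at 83970937, with −log10 q of 37.7, a value reached by 323 of 3705 summits (8.72%). It fell inside the 66-base block of the stronger peak. No summit fell in the peak with the fold of 7.34.

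HNRNPKP1 (ENSG00000250859, chromosome 5, 127511262 to 127512862, minus strand) had 1 MetDiff peak of 100 bases, from 127511710 to 127511809. Its fold of 61.5 was the highest of all 9585 peaks. The next folds were 52.3 in FSCN1, 50.7 in HTRA1, 49.7 in ADAM33, 49.6 at a place shared by TNS2 and TNS2-AS1, and 48.5 in TYK2. By significance HNRNPKP1 was not first: its FDR of 3.98e-08 was equalled or undercut by 814 peaks (8.49%). Its summit, at 127511865, had −log10 q of 15.2, a value reached by 1608 summits (43.4%), close to the median of 13.7.

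HNRNPKP4 (ENSG00000243547, chromosome 3, 96349446 to 96351138, plus strand) also had 1 MetDiff peak of 100 bases, from 96350593 to 96350692. Its fold was 33.8, a value reached by 25 peaks (0.261%), and its FDR was 1.29e-05. Its summit at 96350527 had −log10 q of 20.1, reached by 1057 summits (28.5%). Both pseudogenes thus had folds at or above that of the parent's stronger peak, with ratios to it of 2.01 for HNRNPKP1 and 1.10 for HNRNPKP4, and both had weaker summits than the parent. No error can be given for these ratios.

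**Figure D1:**
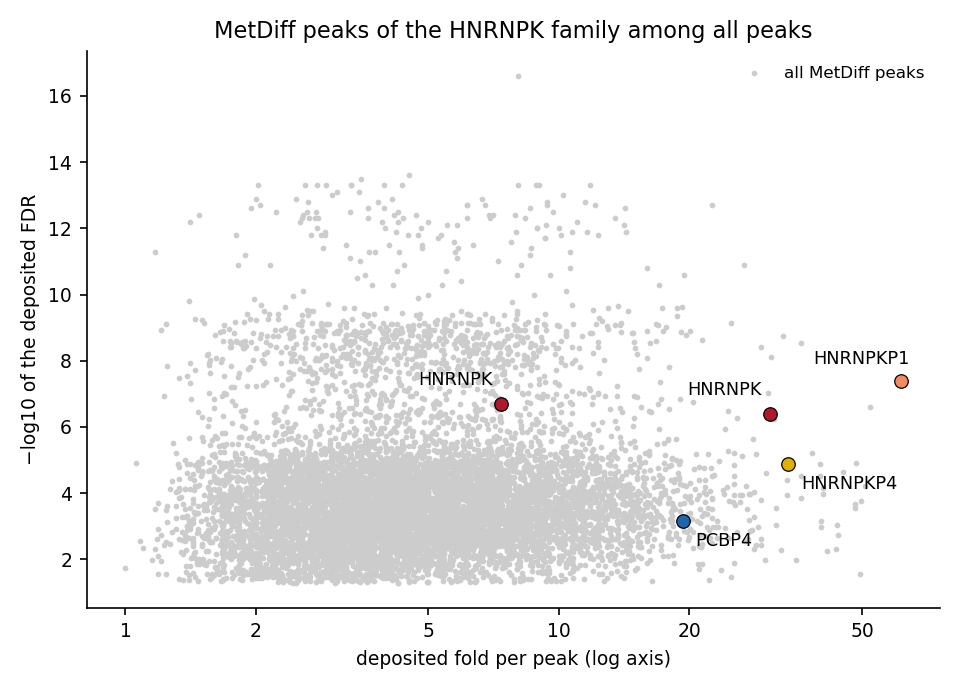
Each point is 1 MetDiff peak, with its deposited fold on a log axis and −log10 of its deposited FDR; grey points are all 9585 peaks and coloured points the 5 peaks of the family. HNRNPKP1 lies farthest to the right at a fold of 61.5, while the HNRNPK peaks at 30.6 and 7.34 differ in fold and lie at a similar height.

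The peaks of the 2 pseudogenes lay at nearly the same distance from the 3′ ends of their spans. Measured to the 3′ end of each pseudogene span, along the strand given in the MetDiff list, the peak ended 448 bases from the end of HNRNPKP1 and 446 bases from the end of HNRNPKP4, a difference of 2 bases. Their summits lay 603 and 611 bases from that end, 8 bases apart. The lengths of the 2 spans differ (1601 and 1693 bases), so the distances to the 5′ end were less alike, at 1053 and 1147 bases for the peaks.

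Along the RNA the summit lay ahead of the peak in both pseudogenes, and inside the stronger peak in HNRNPK. In HNRNPKP1 the peak covered bases 56 to 155 after the summit, and in HNRNPKP4 bases 66 to 165. In HNRNPK the summit was base 26 of the 151 spliced bases of the stronger peak, and the 85-base block began 41 spliced bases after it and ended 125 after it, beyond 77 bases that the list skips between the blocks. On the scale of spliced bases from the summit, the second HNRNPK block therefore overlapped both pseudogene peaks. Sequences of the pseudogenes were not used here, so whether these are copies of the same mRNA bases was not tested. Where the nearest summit lay outside a 1-block MetDiff peak but within 150 bases (1020 peaks), it was on the 5′ side in 904 (88.6%). The median distance was 52 bases over both sides. Peaks with the nearest summit inside the block, or with none within 150 bases, were left out. The 88.6% is therefore not a share of all peaks.

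**Figure D2:**
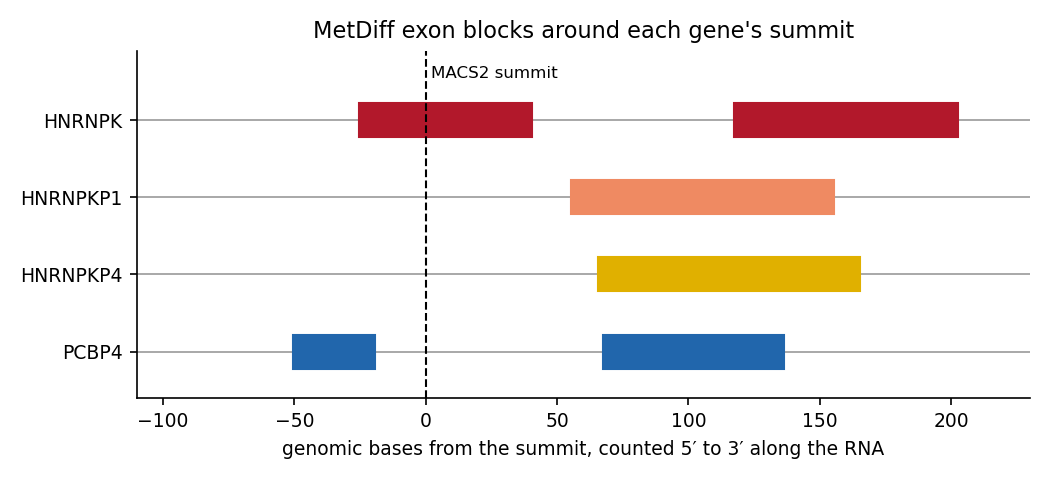
Coloured bars are MetDiff exon blocks, placed by their genomic distance in bases from the MACS2 summit of the same gene (dashed line at 0) and turned so that each RNA reads 5′ to 3′ from left to right; the HNRNPK peak with the fold of 7.34 lies farther left and is not drawn. The summit falls inside a block in HNRNPK, 56 and 66 bases ahead of the peak in HNRNPKP1 and HNRNPKP4, and between the blocks in PCBP4.

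Among 17088 pseudogenes of the RefSeq table, 0.369% had a MetDiff peak and 0.304% a summit. Of the 5 HNRNPK pseudogenes in that table, HNRNPKP1 and HNRNPKP4 had both, and HNRNPKP2, HNRNPKP3 and HNRNPKP5 had neither. Because HNRNPKP1 and HNRNPKP4 were chosen for their peaks, nothing is read from that count. Of the 63 pseudogenes with a MetDiff peak, 29 had a protein-coding parent by their symbol, and in 19 of these the parent had a MetDiff peak too. Over all protein-coding genes 21.8% had a MetDiff peak. No test was made of the difference, and the 19 include both HNRNPK copies, chosen for their peaks. HNRNPK was 1 of 4 parents with 2 pseudogenes among the 19, beside CROCC, PKD1 and RPSA. The 19 are therefore not all distinct parents.

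A fold above the parent's was seen in other pairs as well. In 14 of the 19 pairs the strongest fold of the pseudogene was above the strongest of its parent, and in 5 it was below. HNRNPKP1 and HNRNPKP4 are themselves among the 14. A pseudogene entered only if it had a listed peak. The strongest folds of the 19 pseudogenes had a median of 8.25, beside 6.18 for their parents. Over all protein-coding genes with a peak the median was 6.23. Whether unrelated partners would give similar counts was not tested, so no link between copy and parent is read from these counts. The ratios of all 19 had a median of 1.40 and ranged from 0.429 for PKD1P3 to 4.94 for EIF4BP7. HNRNPK, CROCC, PKD1 and RPSA each entered with more than 1 pseudogene, so the pairs are not independent. The pseudogene peak was shared with another gene span in 6 of the 19 pairs, among them those of PKD1P3 and ARHGAP27P1. Of the 13 pairs without such sharing, again with both HNRNPK copies, 12 lay above the parent. The other, HERC2P2, lay below (4.46 against 5.94 in HERC2). The ratio of HNRNPKP1 stood 9th and that of HNRNPKP4 13th of the 19. After the HNRNPK copies, the highest pseudogene folds in such pairs were 21.0 in RPS15P4 (4.64 in RPS15), 19.2 in RPS16P1 (7.54 in RPS16), 19.0 in ARHGAP27P1 (6.0 in ARHGAP27) and 16.7 in RPS2P48 (4.36 in RPS2). RPS15, RPS16 and RPS2 encode proteins of the small ribosomal subunit. The HNRNPK pairs lay highest in the plot of pseudogene and parent folds. These genes were chosen with their folds in view, so nothing is read from that height. Both pairs share 1 parent value, and their ratios lay inside the range of the others. Pairs were made by symbol alone, and the set also holds pseudogenes that arose by duplication of a gene with its introns.

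**Figure D3:**
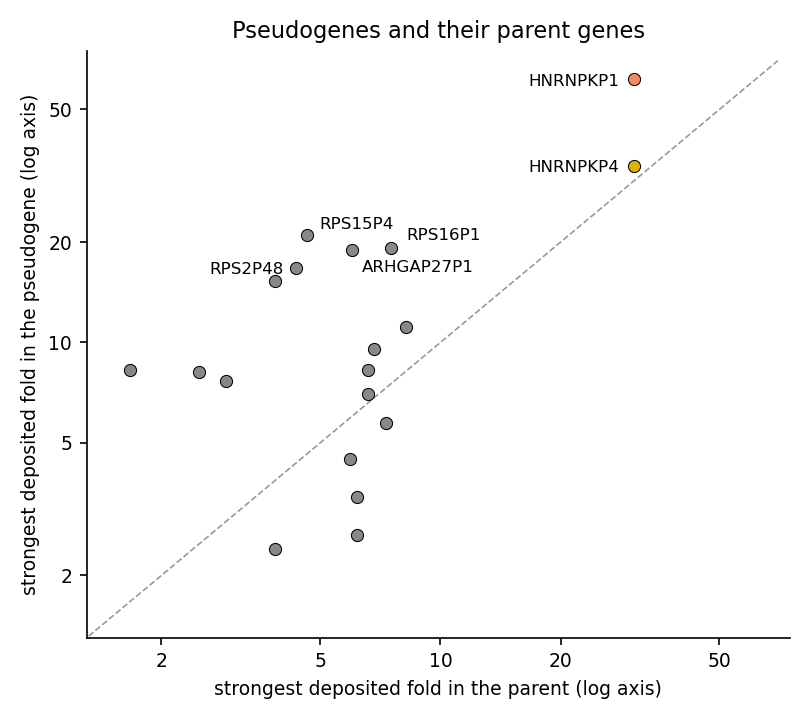
Each of the 19 points is a pseudogene whose parent gene also had a MetDiff peak, with the strongest deposited fold of the parent across and of the pseudogene upward, both on log axes; the dashed line marks equal folds. HNRNPKP1 (61.5) and HNRNPKP4 (33.8) stand above their parent's 30.6 at the upper right, and 14 of the 19 points lie above the line. Both genes of each pair entered through a listed peak, so no link between copy and parent is read from that count.

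Among the protein-coding genes of the table, 21.8% of 20056 had a MetDiff peak and 9.45% a summit. In the family these were 2 of 5 (HNRNPK and PCBP4) and 3 of 5 (HNRNPK, PCBP1 and PCBP4), counts from genes that were in part chosen by them. PCBP4 (ENSG00000090097, chromosome 3, 51957454 to 51967466, minus strand), a member of the family that has been tied to arrest of the cell cycle, had 1 MetDiff peak, from 51958891 to 51959077 in blocks of 69 and 31 bases. Its fold was 19.3, reached by 161 peaks (1.68%). Its FDR of 7.08e-04 was weaker than that of the HNRNPK copies and was equalled or undercut by 64.1% of the list. The PCBP4 summit at 51959027, with −log10 q of 29.1 (reached by 554 summits), lay in the 87 bases that the list skips between the blocks, 20 bases from the nearer one.

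PCBP1 (chromosome 2, 70087477 to 70089203), an intronless gene whose protein regulates mRNA stability and also delivers iron to other proteins, had 1 summit and 0 MetDiff peaks. The summit at 70087937 had −log10 q of 15.8, reached by 1521 summits (41.1%), and lay 460 bases after the 5′ end of the gene and 1266 before its 3′ end. The span of PCBP1-AS1 covers the same base, and summits carry no strand, so the summit cannot be given to one of the 2 genes. PCBP2, the close relative of PCBP1 that also acts in the translation of viral and cellular mRNAs, had 0 peaks and 0 summits over a span of 29061 bases. PCBP3 had 0 of both as well over 298726 bases. The 4 PCBP2 pseudogenes of the table, PCBP2P1 to PCBP2P4, and the RNAs PCBP2-OT1 and PCBP3-AS1 also had 0 peaks and 0 summits. Without an expression table, a gene without a peak cannot be told apart from one whose mRNA was scarce.

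The order of the family depended on the value that was read. By fold it ran HNRNPKP1, HNRNPKP4, HNRNPK (stronger peak), PCBP4 and HNRNPK (other peak). By FDR it ran HNRNPKP1, HNRNPK (other peak), HNRNPK (stronger peak), HNRNPKP4 and PCBP4. By summit it ran HNRNPK, PCBP4, HNRNPKP4, PCBP1 and HNRNPKP1, so the copy with the highest fold had the weakest summit of the 5. Of these 5 summits, 1 lay inside a MetDiff block, while 17.7% of all 3705 did.

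HNRNPK was set beside protein-coding genes with the same number of peaks. Of 1044 genes with 2 MetDiff peaks, HNRNPK included, 6 had a strongest fold of at least 30.6. The 5 nearest to it in strongest fold were TCP1 (30.8), which encodes a chaperonin subunit, UQCR11 (29.3), of respiratory complex III, EDEM2 (28.8), which acts in the disposal of misfolded glycoproteins, EEIG1 (32.6) and TMEM86B (27.9).

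Other genes with KH domains were looked at as the wider family. Of 33 such genes, 12 (36.4%) had a MetDiff peak, 7 (21.2%) a summit, 6 both and 20 neither. Over all protein-coding genes, assigned in the same way, the shares were 21.8% with a peak and 9.45% with a summit. No test was made of the difference. Where the gene had to be the only one at the position, 9 of the 33 had a peak and 4 a summit. The share over all protein-coding genes is not given for that setting. Some of the peaks and summits given below thus also lie in the span of another gene. They are not marked, so their values may not belong to the KH-domain gene named. The strongest folds of the KH-domain genes had a median of 5.25 over the 12 with a peak, beside 6.23 over the 4372 protein-coding genes with a peak. QKI, a regulator of splicing and of myelin mRNAs, had the highest fold of this list, 17.9 (chromosome 6, 163414948 to 163415098, FDR 1.48e-05), followed by MEX3A, an RNA-binding ubiquitin ligase, with 8.88. FUBP3 (6.27), HDLBP (6.25), ANKHD1 (6.06), SF1 (5.60) and MEX3B (4.90) came next, where SF1 recognises the branch point of introns and HDLBP, or vigilin, is a protein with many KH domains that binds mRNAs at the endoplasmic reticulum. AKAP1 (3.70), KHSRP (3.55), FXR2 (3.40), MEX3D (2.95) and ASCC1 (2.43) had lower folds; KHSRP promotes the decay of AU-rich mRNAs, and AKAP1 anchors signalling proteins and mRNAs at mitochondria.

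The strongest folds of HNRNPK (30.6) and PCBP4 (19.3) were above those of these 12 genes, with no error available for any of them. The other HNRNPK peak, at 7.34, lay below the strongest of QKI and MEX3A. Because the family was put together with the folds of HNRNPK and its copies in view, nothing is read from this order. Among the KH summits, HDLBP had the strongest with −log10 q of 27.1 and 2 further ones down to 4.75. QKI had 9.03, KHSRP 7.97, NOVA1 7.07, MEX3D 7.04, FXR2 4.58 and AKAP1 3.19. All 5 summits of the HNRNPK family were stronger than those of QKI and the others except HDLBP, which was exceeded by HNRNPK and PCBP4. The family summit in PCBP1 also lies in the span of PCBP1-AS1. The family was in part chosen by its values, so nothing is read from the order of the summits either. The relatives of the fragile X protein FMR1 were split, with values in FXR2 and 0 peaks and 0 summits in FMR1 and FXR1, and IGF2BP1, IGF2BP2 and IGF2BP3, a family of mRNA-binding proteins, had 0 of both.

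**Figure D4:**
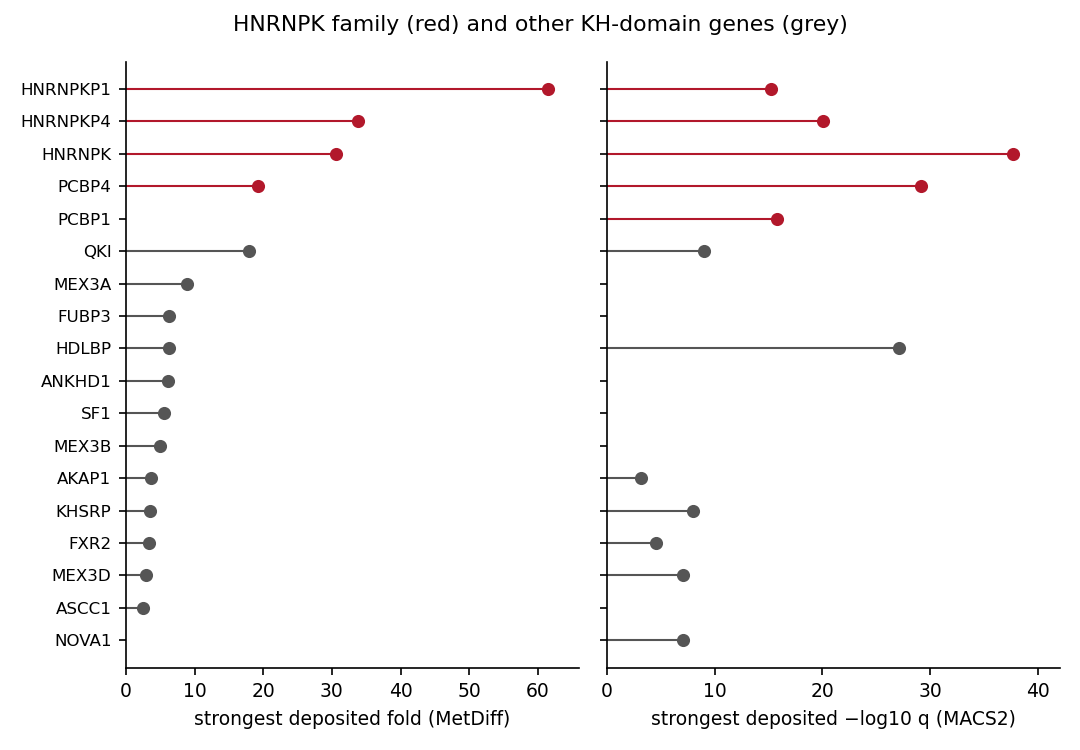
Points give, for each gene with a peak or summit, the strongest deposited fold in the MetDiff list (left) and the strongest deposited −log10 q in the MACS2 list (right); the HNRNPK family is red and the other KH-domain genes grey, and a gene without a point has no value in that list. The red folds run from 19.3 to 61.5, above the highest grey fold of 17.9 in QKI, and the grey summit of HDLBP at 27.1 lies among the red ones. The red genes were put together with the folds of HNRNPK and its copies in view, so their height is not a result. Some positions, among them the PCBP1 summit, also lie in the span of another gene and are not marked.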

How the data were processed

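Per the submitters' processing notes, reads were handled with tools that include the aligner STAR 2.7.1 and the peak caller MACS2 2.2.5, on GRCh38; their settings and any pooling of replicates are not stated there. The protocol also names a GFP antibody; no library labelled with it was analysed here.

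The authors deposited 2 lists without headers. The deposited MACS2 list gives 1-base summits with a −log10 value, taken as a q-value because its smallest, 1.35, lies just above −log10 of 0.05. The deposited MetDiff list gives exon blocks with a p-value, an FDR as log10 and a ratio (fold), which was under 1 in 0 peaks. Depth per library is unknown.

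Blocks were built from columns 2, 11 and 12 (start, lengths and offsets), written 1-based, and set against RefSeq gene spans (GRCh38.p14) in Python 3.11.15 with pandas 2.3.3. The assignment was checked with simulated positions. No test was run. The members and gene lists, and the rule that named genes (all members and relatives by symbol, KH-domain genes with a value, the 6 leading pseudogene pairs, the peaks nearest in rank), were chosen with earlier results of these data known. Alternatives were widened spans, sole-gene assignment, stricter FDR or q, other summit distances and ranking by p.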

Additional observations from a re-analysis of the deposited data

How the results depend on the processing

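The count of 5 MetDiff peaks was the same with spans widened by 1000 bases, with sole-gene peaks and with FDR under 0.01; that of 5 summits was the same with widened spans and with −log10 q of at least 10, and 4 with sole genes. HNRNPKP1 was first by fold also among 1-block peaks and at FDR under 0.01, and 826th when ranked by log10 p. Family summits inside a block numbered 1, within 50 bases 2 and within 150 bases 4, where the shares of all summits were 17.7%, 37.5% and 63.6%. KH-domain genes with a peak numbered 12, also at FDR under 0.01, and 9 with sole genes; those with a summit numbered 7, 4 with sole genes and 1 at −log10 q of at least 10. Pseudogenes with a peak whose parent had one numbered 19, also at FDR under 0.01, and 13 with sole genes. Fewer positions qualify under each stricter setting by construction. For the KH-domain and pseudogene counts, the share over all genes is not given at the stricter settings. Nothing is therefore read from those counts about KH-domain genes or pseudogenes. No paired analysis was possible because no column of either list belongs to a replicate, and for the same reason no replicate could be left out. Depth is unknown, so what it limits cannot be given.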
